A study of Mus musculus with 9 samples.

Results

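The genes described here are 10 regulators of mitochondrial biogenesis and oxidative metabolism, followed through 9 RNA-seq libraries of mouse heart. They are the coactivators Ppargc1a and Ppargc1b (PGC-1α and PGC-1β) and the muscle regulator Perm1, the nuclear receptors Esrra, Esrrb and Esrrg (the estrogen-related receptors, ERR) and Ppara, the transcription factors Nrf1 and Gabpa, and the mitochondrial DNA packaging factor Tfam. They were chosen by symbol, with earlier results of these data known, and matched to the gene IDs of the files. They make up 10 of the 16873 genes measured, and their counts beside those of all tested genes are a description only. All 10 had a mean of at least 1 FPKM (fragments per kilobase of exon per unit of mapped fragments, a level that can be compared between genes) and so were among the 12485 genes tested. The libraries fall into 3 groups of 3. Sting-/- DOX hearts came from mice lacking STING and given doxorubicin, WT DOX hearts from wild-type mice given doxorubicin, and WT saline hearts from wild-type mice given saline. Doxorubicin is an anthracycline used against cancer whose best known side effect is damage to the heart. STING is the adaptor by which cytosolic DNA, sensed by cGAS, triggers interferon. The knockout is labelled as a plain Sting-/-, with no promoter or Cre named. The series describes chronic treatment at a low dose and asks how this pathway bears on cardiac injury, endothelial cells, NAD and mitochondria. Neither the age of the mice, nor the dose, nor the time of sampling is given in the labels of these libraries.

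PGC-1 coactivators bind no DNA themselves. They dock on nuclear receptors such as the ERRs and PPARα, which switch on genes of fatty acid oxidation, the tricarboxylic acid cycle and the respiratory chain, and on NRF1, which with GABP drives nuclear genes for respiratory subunits and for mitochondrial transcription factors, TFAM among them. The heart depends on this network for its energy supply, and Perm1 is a striated muscle gene known to act with PGC-1α and ERRα.

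Promoter windows are shown for the members whose window held a motif read by another member's protein, so that the letters can be set beside the values. Windows of 250 bases before the annotated start, from RefSeq on GRCm38.p6, were found for 9 of the 10 members (14 windows, because Esrrg has 4 and Esrrb and Nrf1 have 2 each). Capitals mark the motif match and all sequences run 5′ to 3′ on the gene's strand. The Perm1 window (chr4:156215677-156215926, plus strand) holds the reverse complement TGACCTT of the ERR core AAGGTCA, beginning 202 bases before the start. The Tfam window (chr10:71238045-71238294, minus strand) holds CCGGAAGT, the ETS motif read by GABP, 47 bases before the start. The Ppara window (chr15:85735526-85735775, plus strand) and the Gabpa window (chr16:84834874-84835123, plus strand) hold the NRF1 core CGCATGCG, 30 and 8 bases before the start.
Perm1: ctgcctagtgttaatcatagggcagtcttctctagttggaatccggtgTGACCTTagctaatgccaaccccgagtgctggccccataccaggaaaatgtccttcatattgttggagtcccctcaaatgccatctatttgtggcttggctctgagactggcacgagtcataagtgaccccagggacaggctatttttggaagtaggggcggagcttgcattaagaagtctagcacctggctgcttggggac
Ppara: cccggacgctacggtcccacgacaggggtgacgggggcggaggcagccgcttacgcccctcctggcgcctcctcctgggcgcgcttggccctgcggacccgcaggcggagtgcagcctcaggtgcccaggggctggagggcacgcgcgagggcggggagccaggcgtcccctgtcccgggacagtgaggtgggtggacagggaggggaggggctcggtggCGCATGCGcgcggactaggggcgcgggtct
Gabpa: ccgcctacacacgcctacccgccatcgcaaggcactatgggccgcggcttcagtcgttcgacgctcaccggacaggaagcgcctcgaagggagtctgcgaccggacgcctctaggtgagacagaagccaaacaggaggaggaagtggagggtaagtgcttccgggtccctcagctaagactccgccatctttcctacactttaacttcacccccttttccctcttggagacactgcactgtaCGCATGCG
Tfam: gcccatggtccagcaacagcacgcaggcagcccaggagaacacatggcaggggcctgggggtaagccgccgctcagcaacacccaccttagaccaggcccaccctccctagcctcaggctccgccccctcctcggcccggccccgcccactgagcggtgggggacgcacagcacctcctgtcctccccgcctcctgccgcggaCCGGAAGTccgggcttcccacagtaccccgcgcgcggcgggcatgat

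The same letters occur in many other windows. On both strands of all 32851 RefSeq windows of the same length, AAGGTCA was in 4.08%, CCGGAAGT in 2.88% and CGCATGCG, which is its own reverse complement, in 1.55%. The longer ERR element TCAAGGTCA, which contains AAGGTCA, was in 0.387% of all windows and in none of the 14 windows of the members. The cyclic AMP response element TGACGTCA was in 1.55% of all windows and in none of these 14. The member without a window, which is Ppargc1a, Ppargc1b or Esrra, was not searched, so these absences do not cover it. The MEF2 core TATTTATA, found in 1.56% of all windows, was 21 bases before 1 of the 4 Esrrg starts and 98 bases before 1 of the 2 Nrf1 starts. The 6 motifs were chosen after a wider search of these same windows, and a match describes letters, not a bound site.

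Several features of the libraries touch every value. Total depth was not given. In units of 1e+06 fragments, the steps of low FPKM values put it at about 8.2 to 8.6 in Sting-/- DOX, 13.0 to 13.3 in WT DOX and 11.1 to 11.7 in WT saline. By the same estimate the thinnest value among the members, Esrrb in a Sting-/- DOX library, rested on about 20 fragments. Sting1, the deleted gene, was at 0 to 0.06 FPKM in Sting-/- DOX, 17.49 to 17.96 FPKM in WT DOX and 5.1 to 5.93 FPKM in WT saline. The summed level of 20 cardiomyocyte markers was 10550 to 11080 FPKM in Sting-/- DOX, 47420 to 50840 FPKM in WT DOX and 68630 to 69720 FPKM in WT saline. Fibroblast markers (12 genes) summed to 8547 to 9011 FPKM in Sting-/- DOX, 1537 to 1581 FPKM in WT DOX and 1070 to 1097 FPKM in WT saline. Endothelial markers (12 genes) summed to 6179 to 6610 FPKM in Sting-/- DOX, 1236 to 1374 FPKM in WT DOX and 1431 to 1542 FPKM in WT saline, and macrophage and monocyte markers (12 genes) to 2799 to 2919 FPKM in Sting-/- DOX, 1496 to 1646 FPKM in WT DOX and 429.7 to 485.7 FPKM in WT saline. No marker in these lists was at 0 in all libraries of a group. In bulk heart, fewer cells of a type and less RNA per cell cannot be told apart, and the part of these marker shifts in the members' changes was not tested, beyond the ratios to cardiomyocyte markers. Untreated Sting-/- hearts were not analysed here. What the genotype does without the drug is therefore contained in each comparison with Sting-/- DOX, and no interaction could be tested. Whether the 3 libraries of a group are separate animals is not stated in the labels. The p-values therefore describe only how far these libraries vary, which may be technical.

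**Figure D1:**
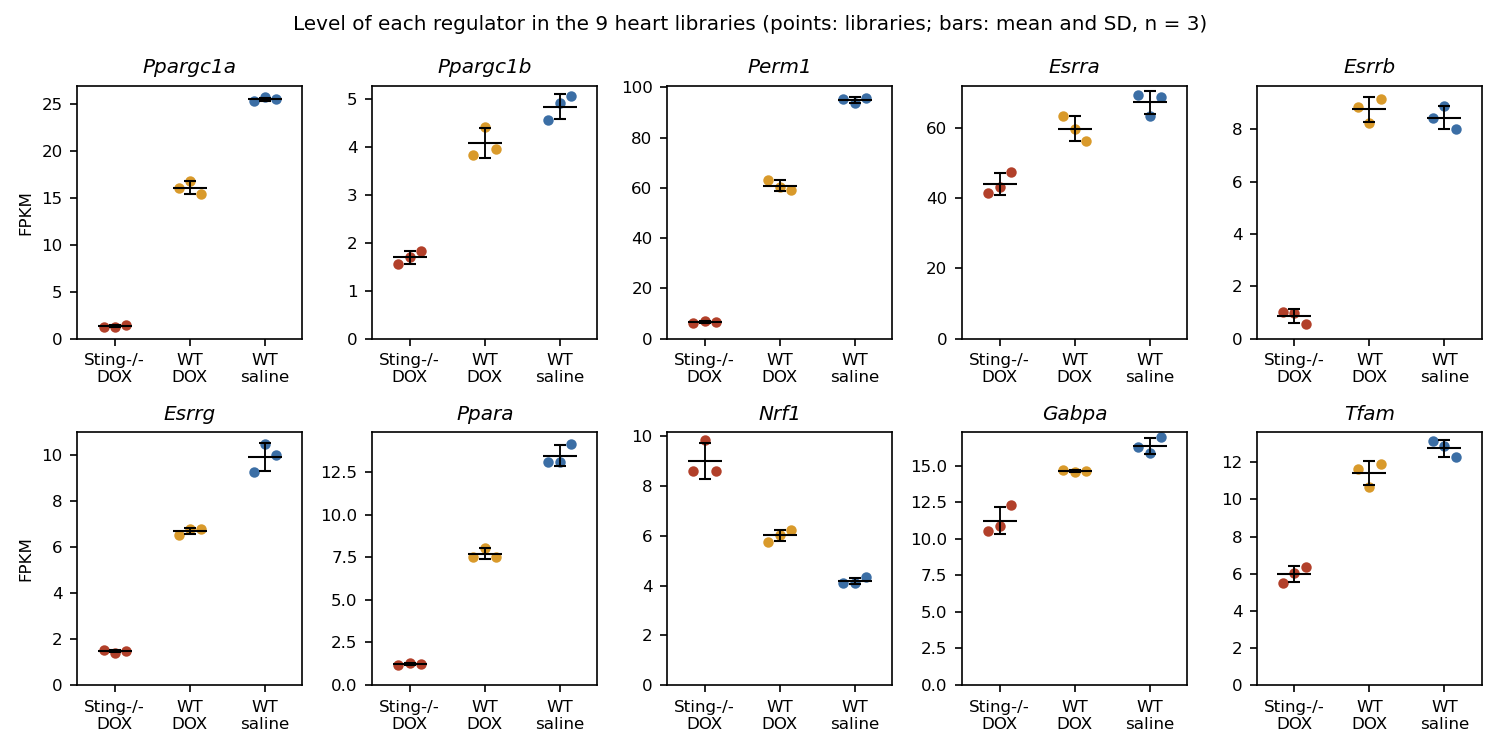
FPKM of each of the 10 regulators (vertical axes, each from 0) in Sting-/- DOX, WT DOX and WT saline hearts; points are libraries, bars the mean and SD (n = 3). Sting-/- DOX libraries are the lowest for 9 genes and the highest for Nrf1, and the groups overlap only for Esrrb between WT DOX and WT saline.

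The comparison of WT DOX with WT saline asked what doxorubicin does to these regulators when STING is present. Ppara, Ppargc1a, Perm1 and Esrrg, the most altered members, fell to between 57.2% and 67.5% of their WT saline means. Ppargc1b, Esrra and Gabpa fell by less, and Nrf1 rose to 143% of its WT saline mean. Esrrb and Tfam did not pass the test. In counts, 1 member was higher and 7 were lower in WT DOX (limma on log2(FPKM + 1), adjusted p under 0.05 over all genes), where 45.3% of all tested genes were higher and 21.5% lower. The median log2 change of the members was -0.186, against 0.128 for all tested genes. Ranges of the groups did not overlap for 9 of the 10 members and for 71.7% of all tested genes.

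The comparison of Sting-/- DOX with WT DOX asked how the treated heart differs without STING. Of the network, 9 genes were lower in Sting-/- DOX, and Ppargc1a, Perm1 and every receptor but Esrra by several fold: Ppargc1a was 12.3-fold, Esrrb 10.2-fold, Perm1 9.33-fold, Ppara 6.22-fold and Esrrg 4.56-fold lower as ratios of mean FPKM. Tfam was 1.92-fold and Esrra 1.36-fold lower, while Nrf1 rose 1.5-fold. All members passed the test, 1 higher and 9 lower (limma, adjusted p under 0.05), beside 54.1% of all tested genes higher and 29.7% lower. Median log2 change was -1.275 for the members and 0.249 for all tested genes. Perm1, Ppargc1a and Esrrb lay at ranks 44, 65 and 192 of 12485 when genes were ordered from the lowest change of log2(FPKM + 1). The pseudocount of 1 understates the changes of low genes. By the ratios of mean FPKM above, Ppargc1a and Esrrb fell more than Perm1. No member's ranges overlapped between these groups, nor did those of 84.8% of all tested genes.

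Against WT saline, Sting-/- DOX hearts again had 1 member higher and 9 lower (limma, adjusted p under 0.05), beside 63.0% of all tested genes higher and 25.9% lower, with ranges that did not overlap for any member or for 89.2% of all tested genes. Median log2 change was -1.63 for the members and 0.494 for all tested genes. Ppargc1a was 19.5-fold, Perm1 14.5-fold and Ppara 10.9-fold lower as ratios of mean FPKM, and Nrf1 was 2.15-fold higher. Log2 changes of the other members were -2.35 for Esrrb, -2.14 for Esrrg, -1.12 for Ppargc1b, -0.98 for Tfam, -0.60 for Esrra and -0.51 for Gabpa, each past the test (limma, highest adjusted p = 4.1e-06, for Gabpa). The pseudocount of 1 in these log2 changes understates those of low genes. As ratios of mean FPKM, Esrrb was 9.82-fold, Esrrg 6.76-fold and Ppargc1b 2.86-fold lower. The 3 comparisons share groups, so their changes are not independent of each other.

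FPKM is relative to each library's total, and the median of all genes shifted with the scaling. With median-ratio scaling that median was -0.084 in WT DOX against WT saline, -0.007 in Sting-/- DOX against WT DOX and 0.026 in Sting-/- DOX against WT saline, on the log2 scale, in place of 0.128, 0.249 and 0.494. The share of calls that were higher was then 41.3%, 49.2% and 51.0%, in place of 67.8%, 64.6% and 70.9%. Under this scaling the falls of the members were larger and the rise of Nrf1 smaller.

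**Figure D2:**
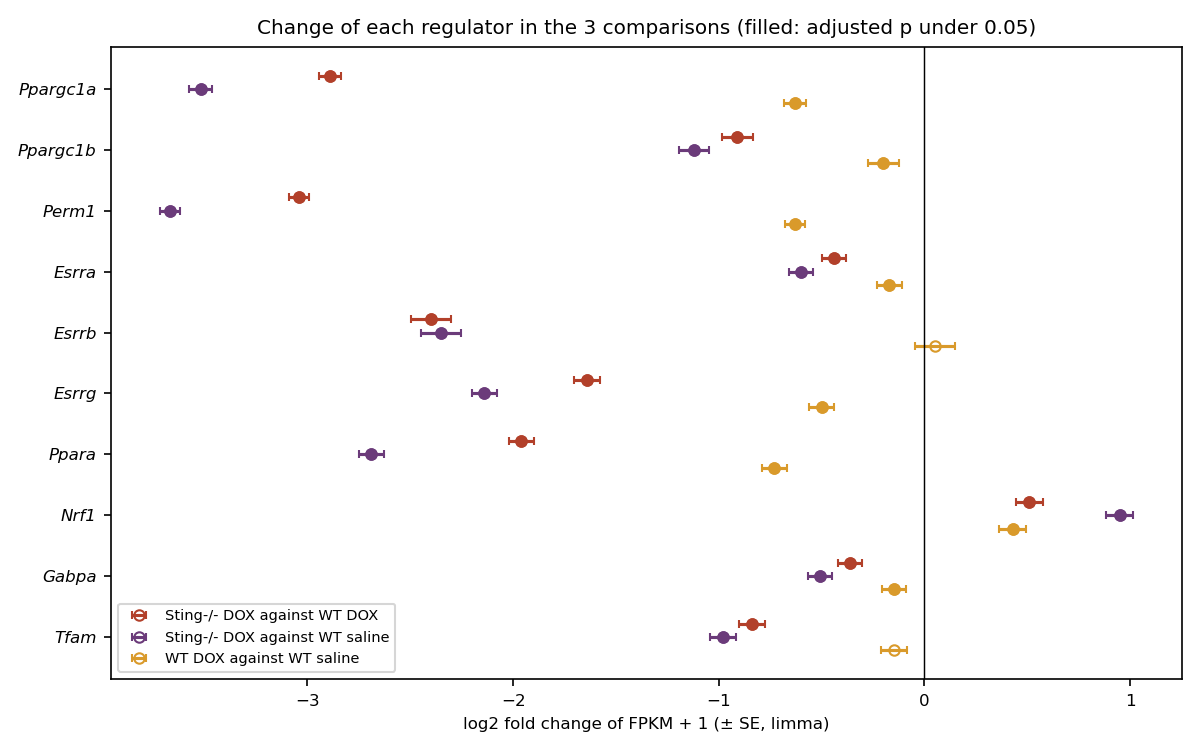
Log2 fold change of FPKM + 1 (horizontal axis, with its SE from limma) of each regulator in Sting-/- DOX against WT DOX, Sting-/- DOX against WT saline and WT DOX against WT saline; filled points passed an adjusted p of 0.05. Perm1 and Ppargc1a lie farthest to the left in both comparisons with Sting-/- DOX and Ppara in WT DOX against WT saline, Nrf1 is the gene to the right of 0 in all 3 comparisons, and the open points are Esrrb and Tfam in WT DOX against WT saline.

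Among the coactivators, Ppargc1a, the best known inducer of mitochondrial biogenesis, was at 1.28, 1.23 and 1.41 FPKM in the Sting-/- DOX libraries, 16.02, 16.82 and 15.43 FPKM in WT DOX and 25.3, 25.7 and 25.5 FPKM in WT saline. The groups stood in clear steps, with the Sting-/- DOX libraries close to the limit of 1 FPKM used to filter genes. Its log2 change was -2.89 in Sting-/- DOX against WT DOX (SE 0.0545, limma adjusted p = 3.96e-13) and -0.63 in WT DOX against WT saline (SE 0.0545, adjusted p = 8.01e-07). The pseudocount of 1 understates the change of genes this low; with a pseudocount of 0.1 the largest estimate over all settings was -3.53 in Sting-/- DOX against WT DOX. Ppargc1a is also a marker of brown fat, whose defining gene Ucp1 was at 0.22 to 0.46 FPKM in Sting-/- DOX, 0 to 0.05 FPKM in WT DOX and 0.06 to 0.6 FPKM in WT saline.

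Ppargc1b, the related coactivator that is also active in basal mitochondrial gene expression, was far less abundant in WT hearts. It was at 1.56, 1.7 and 1.82 FPKM in Sting-/- DOX, 3.83, 4.42 and 3.95 FPKM in WT DOX and 4.56, 4.9 and 5.05 FPKM in WT saline. The groups did not overlap, but WT DOX and WT saline were close. Its log2 change was -0.91 in Sting-/- DOX against WT DOX (SE 0.0746, limma adjusted p = 2.05e-07) and -0.20 in WT DOX against WT saline (adjusted p = 0.0292). The call between WT DOX and WT saline was lost without WT saline library 2 or 3 or WT DOX library 1 or 3 (-0.17 to -0.20, adjusted p 0.0729 to 0.102).

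Perm1, a PGC-1- and ERR-induced regulator of striated muscle, had the highest mean of the members in both WT groups. Its levels were 6.2, 6.99 and 6.4 FPKM in Sting-/- DOX, 63.3, 60.4 and 59.1 FPKM in WT DOX and 95.4, 93.7 and 95.7 FPKM in WT saline. It was the fourth member by level in Sting-/- DOX, behind Esrra, Gabpa and Nrf1, and the leading member in WT saline, while in WT DOX its range overlapped that of Esrra. The log2 change was -3.04 in Sting-/- DOX against WT DOX (SE 0.048, limma adjusted p = 1.14e-13) and -0.63 in WT DOX against WT saline (SE 0.048, adjusted p = 2.58e-07), close to the values of Ppargc1a.

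All ERR genes were lower in Sting-/- DOX, Esrra by the least. Esrra, which encodes ERRα and is the abundant form in the heart, was at 41.4, 43.2 and 47.4 FPKM in Sting-/- DOX, 63.4, 59.8 and 56.3 FPKM in WT DOX and 69.3, 63.6 and 69.0 FPKM in WT saline. Sting-/- DOX libraries lay clearly below the others, whereas the highest WT DOX library (63.37 FPKM) lay just under the lowest WT saline library (63.59 FPKM). Its log2 change was -0.44 in Sting-/- DOX against WT DOX (SE 0.0598, limma adjusted p = 2.44e-05) and -0.17 in WT DOX against WT saline (adjusted p = 0.0264). Between WT DOX and WT saline the call was lost without WT saline library 1 or 3 or WT DOX library 2 or 3 (-0.13 to -0.17, adjusted p 0.0546 to 0.115).

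Esrrg, which encodes ERRγ, a receptor that supports the oxidative program of the postnatal heart, fell in WT DOX against WT saline and again in Sting-/- DOX against WT DOX. It was at 1.51, 1.41 and 1.47 FPKM in Sting-/- DOX, 6.53, 6.75 and 6.75 FPKM in WT DOX and 9.25, 10.5 and 9.97 FPKM in WT saline. Replicates were tightly clustered and no group met another. The log2 change was -1.64 in Sting-/- DOX against WT DOX (SE 0.0624, limma adjusted p = 1.59e-10) and -0.50 in WT DOX against WT saline (SE 0.0624, adjusted p = 1.88e-05).

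Esrrb, which encodes ERRβ, best known from stem cells and the placenta in mice, did not differ detectably between the WT groups. It was at 1.03, 0.99 and 0.56 FPKM in Sting-/- DOX, 8.87, 8.25 and 9.16 FPKM in WT DOX and 8.44, 8.88 and 8.01 FPKM in WT saline. WT DOX and WT saline overlapped, and the Sting-/- DOX libraries lay far below both. Mean FPKM was 10.2-fold lower in Sting-/- DOX than in WT DOX, which the pseudocount of 1 understates on the log2 scale. The log2 change was -2.40 in Sting-/- DOX against WT DOX (SE 0.0969, limma adjusted p = 2.7e-10). In WT DOX against WT saline it was 0.05 (95% interval -0.16 to 0.26, limma adjusted p = 0.684), and turned to -0.18 under median-ratio scaling and -0.17 under quantile normalization, so no direction is given.

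As shares of the summed FPKM of the ERR family, Esrra made up 94.9% ± 0.874 in Sting-/- DOX, 79.5% ± 1.29 in WT DOX and 78.6% ± 1.63 in WT saline (SD, n = 3 each). Esrrb held 1.87% ± 0.666 in Sting-/- DOX, 11.7% ± 0.907 in WT DOX and 9.87% ± 0.764 in WT saline, and Esrrg held 3.17% ± 0.208 in Sting-/- DOX, 8.87% ± 0.513 in WT DOX and 11.6% ± 1.0 in WT saline. Esrrg thus held more of the sum than Esrrb in each Sting-/- DOX library, Esrrb more than Esrrg in each WT DOX library, and Esrrg more than Esrrb in each WT saline library. The family summed to 43.97 to 49.41 FPKM in Sting-/- DOX, 72.2 to 78.77 FPKM in WT DOX and 82.93 to 87.04 FPKM in WT saline.

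Among Ppargc1a, Ppargc1b and Perm1, the share of Ppargc1b was 17.8% ± 0.987 in Sting-/- DOX, 5.0% ± 0.4 in WT DOX and 3.83% ± 0.208 in WT saline (SD, n = 3 each). The share of Ppargc1a was 13.7% ± 1.17 in Sting-/- DOX, 19.9% ± 0.666 in WT DOX and 20.4% ± 0.289 in WT saline, so that Ppargc1b exceeded Ppargc1a in Sting-/- DOX and in neither WT group. These 3 genes summed to 9.04 to 9.92 FPKM in Sting-/- DOX, 78.46 to 83.12 FPKM in WT DOX and 124.25 to 126.19 FPKM in WT saline.

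**Figure D3:**
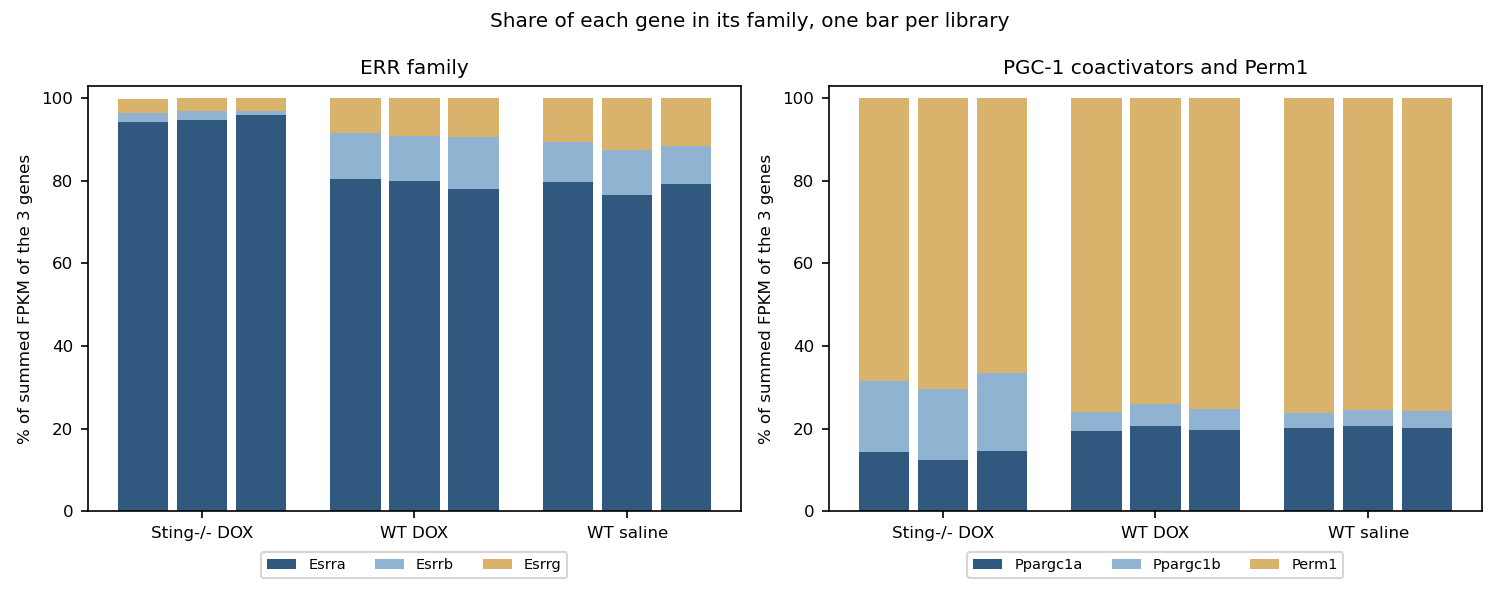
Share (%) of each gene in the summed FPKM of the ERR family (left) and of Ppargc1a, Ppargc1b and Perm1 (right), with 1 bar per library, for Sting-/- DOX, WT DOX and WT saline. Esrra fills 94.2% to 95.9% of the ERR bars in Sting-/- DOX and 76.7% to 80.4% in the WT groups, and Ppargc1b fills 17.1% to 18.9% of the right bars in Sting-/- DOX and 3.6% to 5.4% in the WT groups.

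Ppara encodes PPARα, the fatty-acid-sensing receptor that drives genes of lipid oxidation in the heart and liver. It was at 1.2, 1.28 and 1.24 FPKM in Sting-/- DOX, 7.53, 8.07 and 7.52 FPKM in WT DOX and 13.1, 13.1 and 14.2 FPKM in WT saline. No groups overlapped. Its log2 change was -1.96 in Sting-/- DOX against WT DOX (SE 0.06, limma adjusted p = 2.21e-11). In WT DOX against WT saline it was -0.73 (SE 0.06, adjusted p = 5.18e-07), the lowest change of any member there.

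Nrf1, which encodes nuclear respiratory factor 1, an activator of nuclear genes for respiratory subunits, went the other way from the rest. It was at 8.61, 9.86 and 8.59 FPKM in Sting-/- DOX, 5.76, 6.04 and 6.23 FPKM in WT DOX and 4.11, 4.12 and 4.34 FPKM in WT saline. Every Sting-/- DOX library exceeded every WT DOX library, and every WT DOX library exceeded every WT saline library. The log2 change was 0.51 in Sting-/- DOX against WT DOX (SE 0.0656, limma adjusted p = 1.27e-05) and 0.43 in WT DOX against WT saline (SE 0.0656, adjusted p = 9.96e-05). With quantile normalization these changes were 0.24 and 0.17 and still passed; 63.5% of all tested genes had a lower change than Nrf1 in Sting-/- DOX against WT DOX and 74.1% in WT DOX against WT saline.

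Gabpa encodes the DNA-binding subunit of GABP, the ETS factor that works beside NRF1. It was at 10.5, 10.9 and 12.3 FPKM in Sting-/- DOX, 14.7, 14.5 and 14.6 FPKM in WT DOX and 16.3, 15.8 and 16.9 FPKM in WT saline. Its groups did not overlap, with the widest spread in Sting-/- DOX. The log2 change was -0.36 in Sting-/- DOX against WT DOX (SE 0.0586, limma adjusted p = 0.000117) and -0.15 in WT DOX against WT saline (adjusted p = 0.0395). Between WT DOX and WT saline the call was lost without WT saline library 1 or 3 or any 1 WT DOX library (-0.13 to -0.15, adjusted p 0.0688 to 0.127). Gabpb1, the partner subunit that carries the activation domain, rose in Sting-/- DOX against WT saline, at 20.9 ± 1.55 FPKM in Sting-/- DOX and 8.02 ± 0.456 FPKM in WT saline (SD, n = 3 each, log2 change 1.28, limma adjusted p = 8.5e-10).

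Tfam, which packages mitochondrial DNA and starts its transcription, was at 5.49, 6.06 and 6.34 FPKM in Sting-/- DOX, 11.7, 10.7 and 11.9 FPKM in WT DOX and 13.2, 12.9 and 12.3 FPKM in WT saline. Every Sting-/- DOX library was far below the WT libraries. The log2 change was -0.84 in Sting-/- DOX against WT DOX (SE 0.0635, limma adjusted p = 9.96e-08). In WT DOX against WT saline the ranges did not overlap, and the change of -0.15 (95% interval -0.29 to -0.01, limma adjusted p = 0.058) did not pass. It passed with median-ratio scaling (-0.38), quantile normalization (-0.36) and scaling to a fixed sum (-0.18), with the WT groups fitted alone (-0.15) and without Sting-/- DOX library 1 (-0.15).

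Ordered by level, the members had a different order in each group. In Sting-/- DOX the order was Esrra, Gabpa, Nrf1, Perm1, Tfam, Ppargc1b, Esrrg, Ppargc1a, Ppara and Esrrb. In that group Perm1 overlapped Tfam, Ppargc1a met Esrrg and overlapped Ppara, and Ppara did not overlap Esrrb. In WT DOX it was Perm1, Esrra, Ppargc1a, Gabpa, Tfam, Esrrb, Ppara, Esrrg, Nrf1 and Ppargc1b, with overlap between Perm1 and Esrra. In WT saline it was Perm1, Esrra, Ppargc1a, Gabpa, Ppara, Tfam, Esrrg, Esrrb, Ppargc1b and Nrf1, with overlap between Ppara and Tfam. Nrf1 stood behind Esrra and Gabpa in Sting-/- DOX, ahead of Ppargc1b in WT DOX, and last in WT saline.

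Ratios within a library do not depend on the scaling between libraries. Perm1 to Ppargc1a was 5.02 ± 0.592 in Sting-/- DOX, 3.79 ± 0.184 in WT DOX and 3.72 ± 0.0674 in WT saline (SD, n = 3 each), and overlapped between WT DOX and WT saline (exact permutation test, two-sided, p = 0.6). Ppargc1a to Ppargc1b was 0.773 ± 0.0485 in Sting-/- DOX, 3.96 ± 0.195 in WT DOX and 5.28 ± 0.256 in WT saline. Esrra to Esrrg was 30.1 ± 2.44 in Sting-/- DOX, 8.97 ± 0.689 in WT DOX and 6.83 ± 0.713 in WT saline. Neither of these last ratios overlapped between any groups: Ppargc1a to Ppargc1b was lowest, and Esrra to Esrrg highest, in Sting-/- DOX.

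Ppara to Esrra was 0.0283 ± 0.00184 in Sting-/- DOX, 0.129 ± 0.00893 in WT DOX and 0.2 ± 0.00993 in WT saline (SD, n = 3 each). Tfam to Nrf1, a gene set beside a factor known to act on its promoter, was 0.663 ± 0.0657 in Sting-/- DOX, 1.9 ± 0.128 in WT DOX and 3.05 ± 0.198 in WT saline. In both cases the groups did not overlap. The Tfam window above held no match to the NRF1 core CGCATGCG. Each ratio whose groups did not overlap had an exact permutation p of 0.1, the smallest that 3 libraries against 3 can give, or 0.11 when adjusted over the 45 ratios compared, so none could pass 0.05.

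Each member was also set against the summed cardiomyocyte markers of its own library. Per 1000 FPKM of these markers, Ppargc1a stood at 0.12 ± 0.00751 in Sting-/- DOX, 0.327 ± 0.0239 in WT DOX and 0.369 ± 0.00564 in WT saline, and Perm1 at 0.601 ± 0.0326 in Sting-/- DOX, 1.24 ± 0.04 in WT DOX and 1.37 ± 0.0137 in WT saline (SD, n = 3 each). Both were lower per marker in Sting-/- DOX than in WT DOX, with no overlap, with log2 differences of -1.44 and -1.04. Esrrb was at 0.0796 ± 0.0254 in Sting-/- DOX, 0.178 ± 0.00629 in WT DOX and 0.122 ± 0.00657 in WT saline, and Ppara at 0.114 ± 0.00253 in Sting-/- DOX, 0.157 ± 0.0118 in WT DOX and 0.195 ± 0.00975 in WT saline.

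Esrrg per 1000 FPKM of these markers was at 0.135 ± 0.00743 in Sting-/- DOX, 0.136 ± 0.00697 in WT DOX and 0.143 ± 0.00996 in WT saline (SD, n = 3 each), with overlap in every comparison (exact permutation p of 0.3 to 1.0). The other 5 members were higher per marker in Sting-/- DOX than in WT DOX with no overlap, from Ppargc1b (log2 difference 0.92) and Tfam (1.24) through Esrra (1.74) and Gabpa (1.8) to Nrf1 (2.76). In all, 5 members were higher per marker, 4 lower and 1 overlapping in Sting-/- DOX against WT DOX, and 6 higher, 3 lower and 1 overlapping in WT DOX against WT saline, each nonoverlapping ratio at the smallest exact p of 0.1. The marker sum itself was 10550 to 11080 FPKM in Sting-/- DOX and 47420 to 50840 FPKM in WT DOX. It was 68630 to 69720 FPKM in WT saline. A gene of unchanged FPKM is therefore higher per marker in both comparisons. The share of all tested genes higher per marker was not counted, so these counts do not set the members apart. With the geometric mean of the markers in place of their sum no difference that was free of overlap changed sign.

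**Figure D4:**
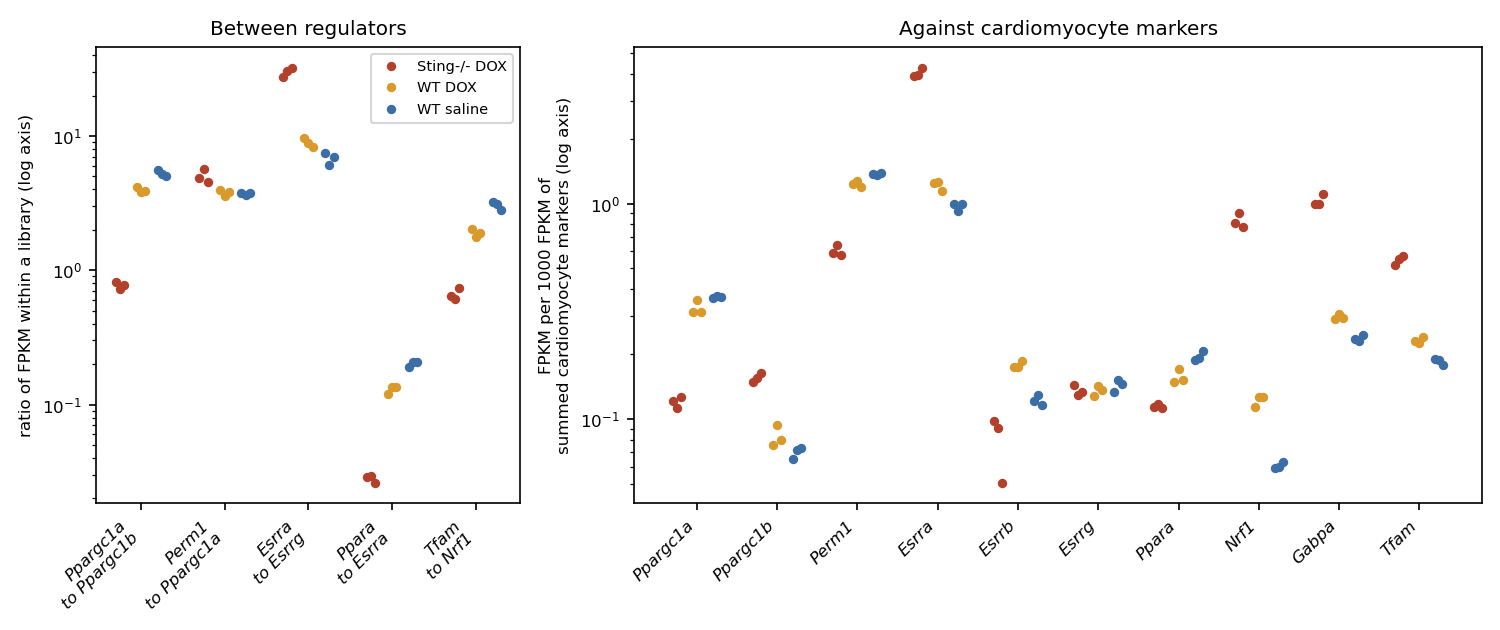
Ratios of FPKM within each library, on log axes: between pairs of regulators (left) and each regulator per 1000 FPKM of summed cardiomyocyte markers (right), with 1 point per library of Sting-/- DOX, WT DOX and WT saline. Against the markers Ppargc1a, Perm1, Esrrb and Ppara are lowest in Sting-/- DOX, Esrrg overlaps between the groups, and the other 5 are highest in Sting-/- DOX.

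Pairs of members with the nearest patterns were found by the root mean square difference of centred log2(FPKM + 1) over the 9 libraries. Esrra and Gabpa were the closest pair (0.0608), followed by Ppargc1a and Perm1 (0.0965) and Ppargc1b and Tfam (0.106). Among the tested genes other than predicted or unnamed ones (names such as Gm, Rik or LOC), Txlnb (0.069) and Ppp2r3a (0.0782) were among the 3 nearest to Ppargc1a. Predicted and unnamed genes were also left out of the searches for Perm1 and Esrra below. The pseudocount of 1 narrows the changes of Ppargc1a and Ppargc1b, which are low in Sting-/- DOX, so these distances hold only on that scale. A small distance also arises between genes that both change little, as Esrra and Gabpa did. Mean FPKM of Ppargc1a was 1.307 in Sting-/- DOX and 16.09 in WT DOX, and that of Txlnb was 16.94 and 123.8. The ratio of Perm1 to Ppargc1a, free of the pseudocount, was 5.02 in Sting-/- DOX and 3.79 in WT DOX, without overlap.

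Nearest to Perm1 were Myl3 (0.0537), Pln (0.0787) and Etfdh (0.0788). Myl3, a ventricular myosin light chain, was at 511 ± 23.6 FPKM in Sting-/- DOX, 4501 ± 138 FPKM in WT DOX and 6922 ± 156 FPKM in WT saline (SD, n = 3 each). Nearest to Esrra were Zfyve9 (0.0501), Txnip (0.0561) and St6galnac6 (0.0567). Myl3 and Pln are themselves among the 20 cardiomyocyte markers, of which 2 were higher and 16 lower in WT DOX against WT saline (median log2 change -0.532) and 0 higher and 20 lower in Sting-/- DOX against WT DOX (median -2.207). Of all tested genes, 45.3% were higher and 21.5% lower in the former comparison, and 54.1% and 29.7% in the latter.

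The genes the network is known to drive were then counted, in lists chosen with earlier results of these data known. Of 29 known ERR target genes tested, 29 were lower in Sting-/- DOX than in WT DOX, with a median log2 change of -2.32 (limma, adjusted p under 0.05), beside 29.7% of all tested genes lower. They included Pdk4, the kinase that shuts off pyruvate dehydrogenase, with 6.76 ± 0.67 FPKM in Sting-/- DOX and 134 ± 14 FPKM in WT DOX, and Ckmt2, the creatine kinase of muscle mitochondria, with 112 ± 4.27 FPKM in Sting-/- DOX and 1150 ± 26.6 FPKM in WT DOX (SD, n = 3 each). In WT DOX against WT saline 28 of the 29 were lower and 0 higher (median -0.486), beside 21.5% of all tested genes lower, led by Acadm, a dehydrogenase of fatty acid oxidation (411.1 ± 6.56 FPKM in WT DOX and 707.3 ± 26 FPKM in WT saline). Against WT saline, Sting-/- DOX hearts had all 29 lower (median -2.727), beside 25.9% of all tested genes lower. The cardiomyocyte markers had a median of -2.207 in Sting-/- DOX against WT DOX and -0.532 in WT DOX against WT saline, and their part in these counts was not tested.

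Of 27 PPARα target genes tested, 3 were higher and 24 lower in Sting-/- DOX against WT DOX (median -2.32), beside 54.1% of all tested genes higher and 29.7% lower, and 3 were higher and 22 lower in WT DOX against WT saline (median -0.484), beside 45.3% and 21.5%. In Sting-/- DOX against WT saline 3 were higher and 23 lower (median -2.727), beside 63.0% and 25.9%. The cardiomyocyte markers, with medians of -2.207, -0.532 and -2.726 in these comparisons, moved with the list, and their part was not tested. This list shares Acadm, Cpt1b, Pdk4, Slc25a20 and Ucp3 with the ERR list. Fabp3, the heart fatty acid binding protein, was at 390.4 ± 7.56 FPKM in Sting-/- DOX and 4714 ± 169 FPKM in WT DOX (SD, n = 3 each, limma adjusted p = 1.03e-14). Some members went the other way. Angptl4, an inhibitor of lipoprotein lipase, rose in WT DOX to 47.1 ± 2.9 FPKM, against 10.95 ± 1.04 FPKM in WT saline, and Ucp2, an uncoupling protein, was at 257.2 ± 5.81 FPKM in Sting-/- DOX, 120.6 ± 14.4 FPKM in WT DOX and 41.7 ± 1.86 FPKM in WT saline.

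Targets of NRF1 and GABP (26 tested) were lower in 23 cases and higher in 2 in Sting-/- DOX against WT DOX, with a median of -1.245, beside 29.7% of all tested genes lower and 54.1% higher and beside the rise of Nrf1. Of the cardiomyocyte markers 20 of 20 were lower there (median -2.207), and their part was not tested. Sdhd, an anchor subunit of succinate dehydrogenase, averaged 51.5 ± 1.65 FPKM in Sting-/- DOX and 285.7 ± 3.34 FPKM in WT DOX (SD, n = 3 each). Cycs, which encodes cytochrome c, averaged 86.2 ± 3.31 FPKM in Sting-/- DOX and 454.7 ± 9.53 FPKM in WT DOX. Higher were Tomm34 (log2 change 0.91, limma adjusted p = 1.29e-08) and Cox6a1 (0.13, adjusted p = 0.0167), the form of this cytochrome oxidase subunit found outside striated muscle. In Sting-/- DOX against WT saline 22 were lower and 2 higher (median -1.589), beside 25.9% and 63.0% of all tested genes, and in WT DOX against WT saline 18 were lower and 3 higher (median -0.259), beside 21.5% of all tested genes lower and 45.3% higher. Cycs is also among the ERR targets, and Polrmt, Tfb1m and Tfb2m are also among the genes for mitochondrial DNA.

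Genes that transcribe and maintain mitochondrial DNA (29 tested) counted 17 lower and 11 higher in Sting-/- DOX against WT DOX (median -0.324), beside 29.7% of all tested genes lower and 54.1% higher. Of the 29, 10 were lower and 5 higher in WT DOX against WT saline (median -0.101), beside 21.5% lower and 45.3% higher of all tested genes. Lrpprc, which stabilises mitochondrial mRNAs, averaged 8.8 ± 1.03 FPKM in Sting-/- DOX and 46.7 ± 0.715 FPKM in WT DOX (SD, n = 3 each). Tefm, the mitochondrial elongation factor, averaged 5.0 ± 0.5 FPKM in Sting-/- DOX and 14.1 ± 0.35 FPKM in WT DOX. Tk2, the mitochondrial thymidine kinase, rose, at 14.1 ± 0.674 FPKM in Sting-/- DOX and 6.18 ± 0.194 FPKM in WT DOX (limma adjusted p = 1.13e-08).

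Cofactors and partners of the members (25 tested) were higher in 13 cases and lower in 6 in Sting-/- DOX against WT DOX (median 0.154), which is close to the 54.1% higher and 29.7% lower of all tested genes (median 0.249). Of these 25, 6 were higher and 9 lower in WT DOX against WT saline (median 0.005), beside 45.3% and 21.5% of all tested genes. Pprc1, the remaining PGC-1 family gene, rose in WT DOX and averaged 8.44 ± 0.303 FPKM in WT DOX and 4.79 ± 0.182 FPKM in WT saline (SD, n = 3 each, log2 change 0.71, limma adjusted p = 5.34e-07). That is the opposite direction to Ppargc1a and Ppargc1b in the same libraries. Lpin1, a lipid phosphatase that also coactivates PPARα, was at 5.45 ± 0.182 FPKM in Sting-/- DOX, 28.2 ± 0.977 FPKM in WT DOX and 40.8 ± 1.47 FPKM in WT saline. Pparg, the adipocyte-enriched relative of Ppara, rose in Sting-/- DOX, at 21.1 ± 0.609 FPKM in Sting-/- DOX and 7.97 ± 1.52 FPKM in WT DOX (log2 change 1.32, adjusted p = 9.48e-08).

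Kinases and other regulators upstream of PGC-1α (26 tested) counted 13 higher and 11 lower in Sting-/- DOX against WT DOX (median 0.088), beside 54.1% of all tested genes higher and 29.7% lower. Of the same 26, 5 were higher and 12 lower in WT DOX against WT saline (median -0.108), beside 45.3% and 21.5% of all tested genes. Prkaa2, the AMP-activated kinase subunit typical of striated muscle, was at 1.65 ± 0.146 FPKM in Sting-/- DOX and 20.0 ± 0.575 FPKM in WT DOX (SD, n = 3 each, log2 change -2.99, limma adjusted p = 3.15e-13). Adrb1, the main cardiac beta-adrenergic receptor, averaged 1.01 ± 0.193 FPKM in Sting-/- DOX and 8.56 ± 0.962 FPKM in WT DOX. Nos3, the nitric oxide synthase of endothelial cells, rose, at 51.6 ± 4.04 FPKM in Sting-/- DOX and 15.2 ± 0.15 FPKM in WT DOX (adjusted p = 4.1e-11), beside endothelial markers of which 12 of 12 were higher in that comparison.

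**Figure D5:**
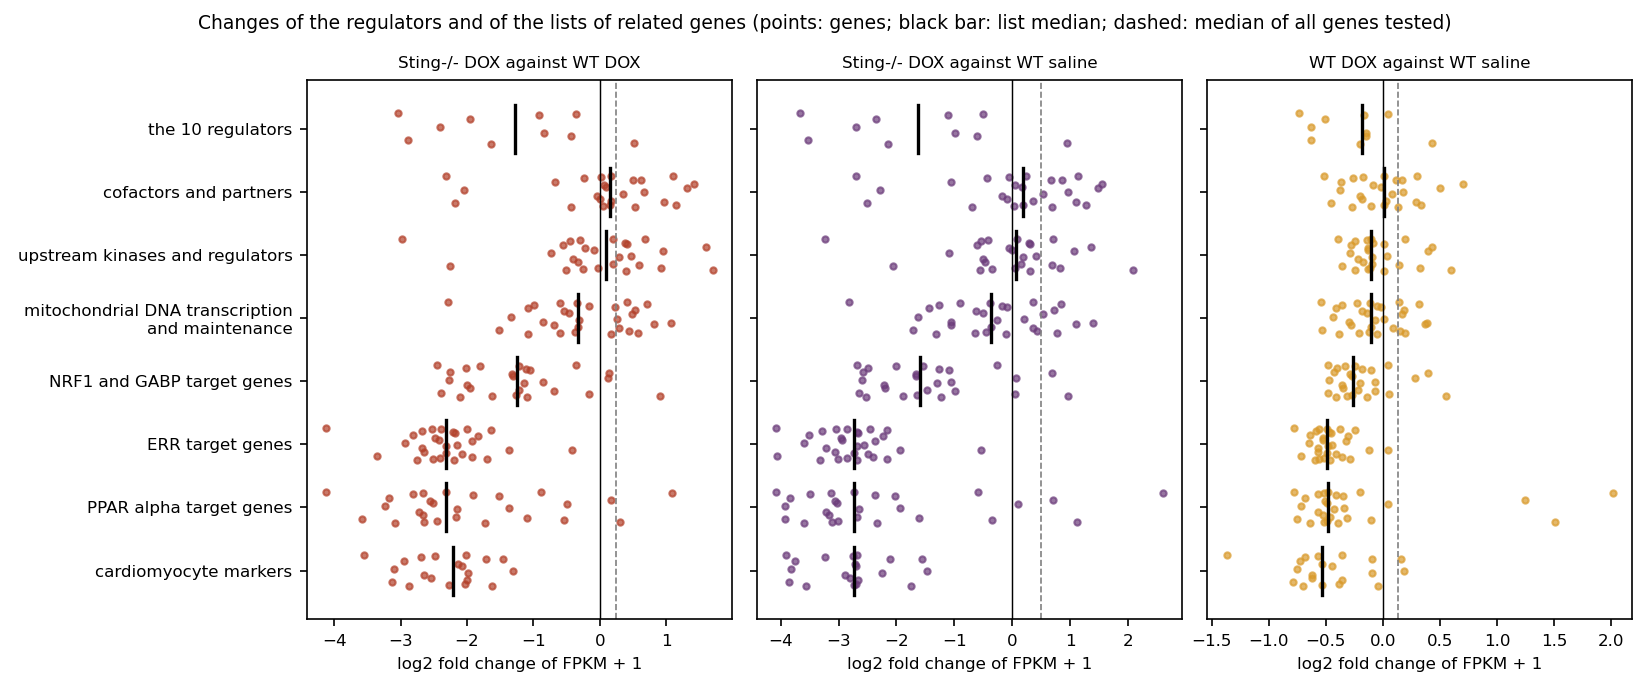
Log2 fold change of FPKM + 1 (horizontal axes) of every tested gene in the 10 regulators, their partners, upstream regulators and target lists, and the cardiomyocyte markers, in each comparison; black bars are list medians and dashed lines the median of all tested genes. In Sting-/- DOX against WT DOX the medians run from 0.154 (cofactors and partners) to -2.32 (ERR and PPARα targets), with the cardiomyocyte markers at -2.207.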

How the data were processed

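Hearts of 3 groups (Sting-/- DOX, WT DOX, WT saline; 3 libraries each, grouped by title) were compared. The authors deposited 1 file per library with FPKM values to 2 decimals; per the submitters' processing notes, HISAT2 2.0.4, Bowtie2 2.2.5 and RSEM 1.2.12 were used with build GRCm39. FPKM keeps no counts, so no count model was used, and depth was read only approximately from whole-read steps (48.5% to 58.4% of low values came within 0.1 of whole reads, in a scan of 5 to 18, in units of 1e+06 fragments, whose limits were chosen after seeing the values). Precision is given by the spread of 3 libraries. Of the gene IDs, 16825 matched a symbol in a RefSeq table of GRCm38.p6 and 48 did not; promoters come from RefSeq on that build.

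The test was limma 3.58.1 in R 4.3.3 on log2(FPKM + 1) (trended variance prior, all 9 libraries, two-sided), over 12485 genes that averaged 1 FPKM or more, with Benjamini-Hochberg adjustment over all of them and a threshold of 0.05; the steps were checked on simulated data. Ratios within a library were compared with exact permutation tests. Joins and exact tests used scipy 1.17.1, pandas 2.3.3 and numpy 2.4.6 in Python 3.11.15, and figures used matplotlib 3.10.9. The 10 members and all lists were chosen with earlier results of these data known. Named genes are the members, up to 3 called list members per comparison in the main direction and up to 2 in the other, ranked by size, and the 3 nearest patterns to Ppargc1a, Esrra and Perm1; not all that the rule allows are printed, and 1 of them is not reported here. The titles do not say that a shared replicate number marks a shared litter, batch or day, so the numbers were not taken as pairs. Same-numbered libraries of different groups also did not deviate together (9 correlations, -0.032 to 0.104, 1 over 0.1). Alternatives covered the pseudocount, the filter, scaling, the groups in the fit, the variance prior, a replicate block and leaving out each library.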

Additional observations from a re-analysis of the deposited data

How the results depend on the processing

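Every member kept its direction and call in both comparisons with Sting-/- DOX under each alternative run (89 values per comparison with other settings and 90 leaving out a library); Ppargc1b has no value under the filter of 5 FPKM, since its mean is lower. In WT DOX against WT saline, 83 of 89 values with other settings kept direction and call, 4 values of Tfam gained a call and 2 of Esrrb changed sign, to -0.18 (median-ratio scaling) and -0.17 (quantile normalization). Leaving out a library, the members lower there numbered 4 to 8, against 7 with all libraries; 4 is the count without WT saline library 3 or WT DOX library 3. Scaling moved counts over many genes. With median-ratio scaling and quantile normalization, pathway list genes higher in WT DOX against WT saline were 10 and 11 in place of 22, those higher in Sting-/- DOX against WT DOX 25 and 25 in place of 42, and those higher in Sting-/- DOX against WT saline 25 and 24 in place of 40. Of all genes, 3582 and 3461 in place of 5651 were then higher and 5087 and 5363 in place of 2680 lower in WT DOX against WT saline, and 5274 and 5205 in place of 3228 lower in Sting-/- DOX against WT saline. The cause of these shifts was not tested beyond the scaling itself. With the replicate number as a block the counts of members called were the same in all 3 comparisons (1 higher and 7 lower in WT DOX against WT saline, 1 and 9 in the others), and 6749 of all genes in place of 6760 were higher in Sting-/- DOX against WT DOX. Of 270 ratio values leaving out a library, all stayed within the spread between replicates. With 3 libraries per group, leaving out 1 cannot move a mean by more than that spread. This count is therefore no check of the ratios. With the geometric mean of the markers all members shift alike, by 0.17 in Sting-/- DOX against WT DOX, 0.15 in Sting-/- DOX against WT saline and -0.02 in WT DOX against WT saline on the log2 scale; 18 of 30 values moved by more than the spread and 0 of those without overlap reversed. Depth is lowest in Sting-/- DOX, where several members rest on few fragments.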

Other observations

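Further cell type markers also differed between the groups beside the members. Skeletal muscle markers (10 genes) summed to 396.2 to 437.2 FPKM in Sting-/- DOX, 1160 to 1294 FPKM in WT DOX and 2225 to 2494 FPKM in WT saline. Yet of the 6 tested 4 were higher and 2 lower in Sting-/- DOX than in WT DOX, beside 54.1% and 29.7% of all tested genes. The brown adipocyte list (9 genes, which holds Ppargc1a, Cox7a1 and Cox8b) summed to 814.8 to 891.1 FPKM in Sting-/- DOX, 3069 to 3189 FPKM in WT DOX and 4841 to 4965 FPKM in WT saline. White adipocyte markers (6 genes) summed to 83.64 to 92.07 FPKM in Sting-/- DOX, 14.05 to 63.64 FPKM in WT DOX and 0.53 to 1.04 FPKM in WT saline. Erythroid markers (7 genes) summed to 8481 to 9701 FPKM in Sting-/- DOX, 1498 to 1638 FPKM in WT DOX and 2454 to 2549 FPKM in WT saline. Smooth muscle and pericyte markers (9 genes) summed to 979.5 to 1046 FPKM in Sting-/- DOX, 283.2 to 296.3 FPKM in WT DOX and 360.4 to 406.7 FPKM in WT saline. Of 6 neutrophil markers tested, 5 were lower in Sting-/- DOX than in WT DOX (limma, median log2 change -1.392), beside 29.7% of all tested genes. All 6 were higher in WT DOX than in WT saline (median 3.241), beside 45.3% of all tested genes. Mesothelial markers (6 genes) summed to 94.66 to 98.0 FPKM in Sting-/- DOX, 5.77 to 7.69 FPKM in WT DOX and 4.06 to 6.25 FPKM in WT saline. The part of these lists in the members' changes was not tested.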
